A study of Phrynocephalus vlangalii with 2 samples.

Results

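The genes described here are the histone modifiers and chromatin remodellers of the toad-headed lizard Phrynocephalus vlangalii. They are the assembled genes whose deposited annotation text contains, in any case, one of the words histone, lysine-specific demethylase, chromodomain, SWI/SNF, methyl-CpG, bromodomain, polycomb, DNA (cytosine-5 or sirtuin. The words found 407 of 58458 assembled genes, and these carry 88 different annotation texts. An assembled gene is called a copy below and an annotation text a name, because 1 name stood on up to 29 copies and only 22 names stood on 1 copy. RNA of adult lizards was sequenced from 2 populations, Madoi and Maqu, with 1 library each and liver, lung, heart and muscle named as the tissues of both. Reads summed to 63636521 for Madoi and to 66401051 for Maqu. The sources used here do not say how many animals went into a library, and every ratio below compares these 2 libraries without a replicate check.

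DNA in the nucleus is wound around histones, and the tightness of this packing is set by chemical marks on the histones and on the DNA. Writers such as acetyltransferases and methyltransferases add the marks, and erasers such as deacetylases and demethylases remove them. Proteins with bromodomains, chromodomains or methyl-CpG-binding domains read the marks, and remodellers of the SWI/SNF and chromodomain helicase families slide or evict nucleosomes with energy from ATP. Polycomb proteins keep genes silent. The roles given below are known from mammals, flies or yeast, not from this lizard.

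The copies fell into 3 classes by their reads. The Maqu library had 0 reads for 94 of the 407 copies, or 23.1%, against 20.2% of all 14472 annotated copies. A further 7 copies had 1 to 3 reads in Maqu against 742 to 9337 in Madoi. The other 306 copies were read in both libraries, with at least 6 reads in Maqu, and no copy had 0 reads in Madoi. Copies with 0 reads in Maqu may not be of lizard origin, and this was not tested. They are therefore reported apart, and ratios are the summed reads of the remaining copies of a name, on the log2 scale, Madoi over Maqu. Because 7 copies came close to 0 in Maqu, ratios given below that include one of them are also given without it.

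**Figure D1:**
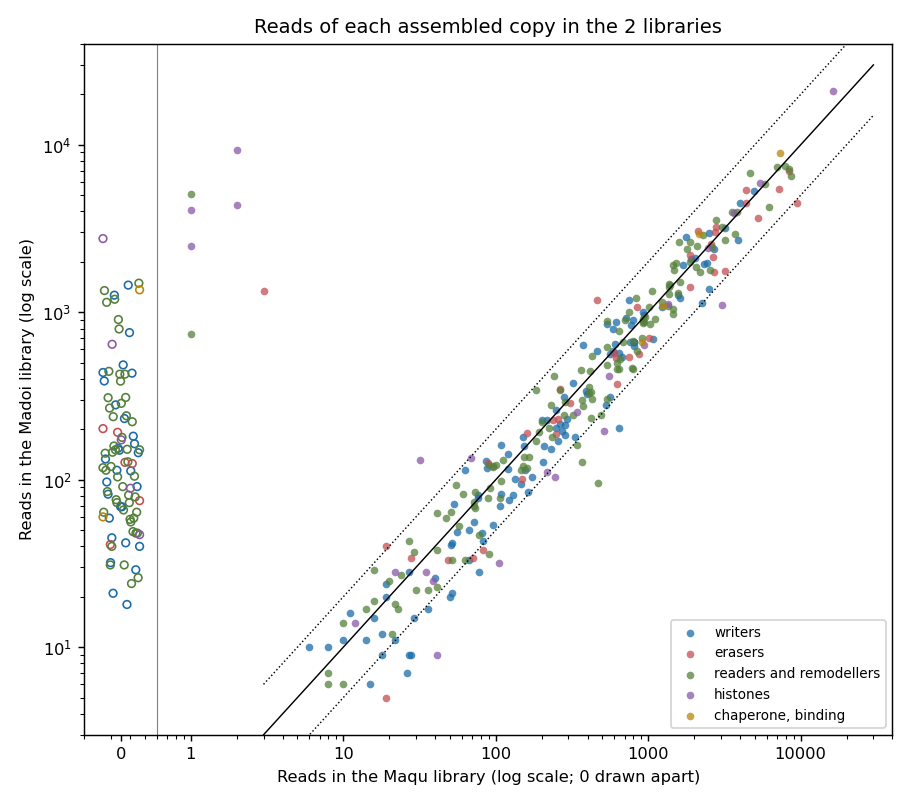
Reads of the 407 copies in the Maqu library (horizontal, log scale) and the Madoi library (vertical, log scale), 1 point per copy coloured by role; the solid line marks equal reads and the dotted lines a 2-fold difference, without scaling of library size. Open circles at the left are the 94 copies with 0 reads in Maqu, and the 7 points between them and the diagonal have 1 to 3 reads in Maqu.

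Most of these genes had close to equal reads in both libraries. A call, higher or lower, needed a sum of 10 reads or more over the 2 libraries, a difference of 2-fold or more, and an exact 95% counting interval that excluded equality. Of 86 names with reads in Maqu, 6 were called higher in Madoi, 3 lower and 77 neither. Over all 4702 annotated names, handled in the same way, 5.89% were called higher and 7.15% lower. The median log2 ratio of the 86 names was 0.01, beside 0.00 over all names. Without copies at 0 or with a log2 ratio beyond 5 in either direction, 2 names were called higher and 4 lower, where 4.17% and 7.05% of all names were called, and the median was -0.02, as it was over all names. With all copies summed, 12 of 88 names were called higher and 1 lower, beside 11.6% and 6.33%. The counting intervals cover counting error only, and reads are not independent molecules.

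**Figure D2:**
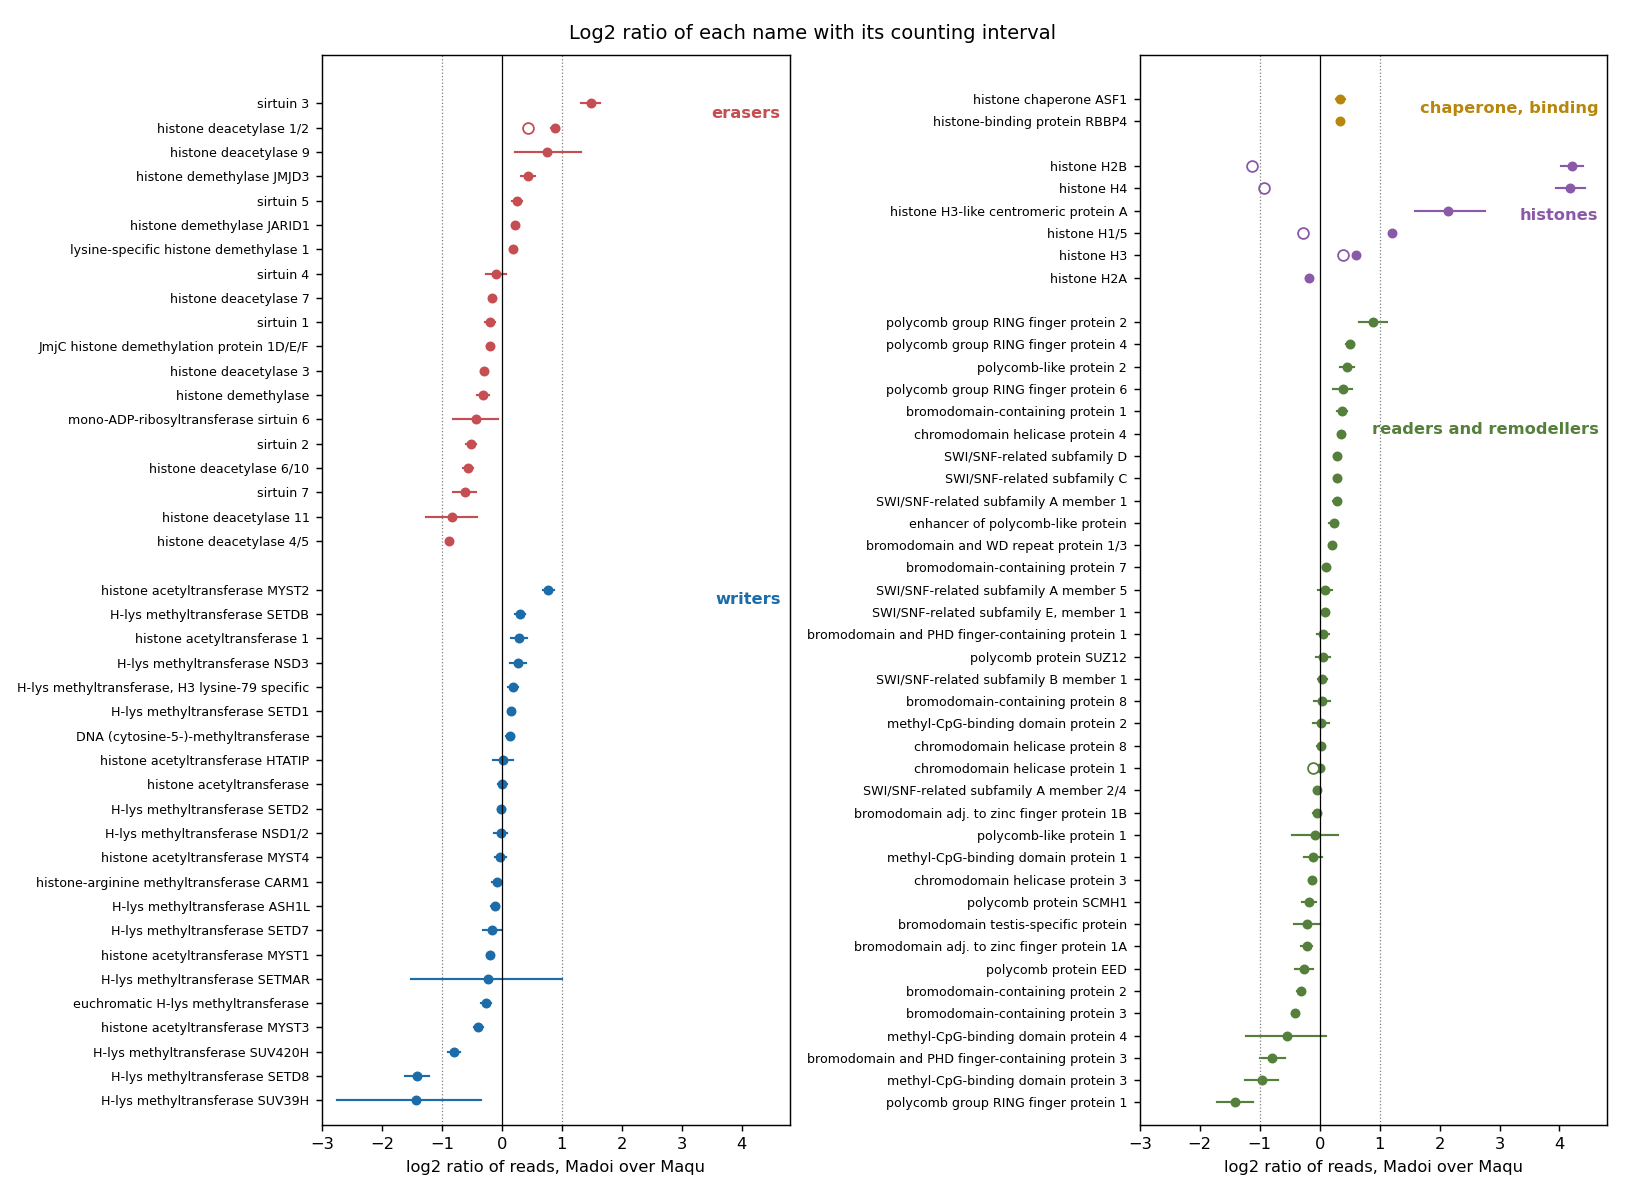
Log2 ratio of reads, Madoi over Maqu (horizontal), for each name reported here, by role; filled points are sums over copies with reads in Maqu, bars are exact 95% counting intervals, and dotted lines mark a 2-fold difference. Open circles give the ratio without copies beyond a log2 ratio of 5, for the names that have one; they move histones H2B, H4 and H1/5 from above 0 to below 0.

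Writers add marks, and 0 of 22 writer names were called higher and 2 lower, with a median log2 ratio of -0.02. That is 0% and 9.09%, beside 5.89% and 7.15% of all names. With all copies summed, 2 were called higher and 0 lower, with a median of 0.11, beside 11.6% and 6.33% of all names. The maintenance and de novo methylation of DNA is carried out by DNA (cytosine-5-)-methyltransferases, which the table holds under 1 name. This name had 4158 Madoi reads and 4085 Maqu reads, giving a log2 ratio of 0.14 (counting interval 0.07 to 0.20). Its 3 copies with at least 50 reads lay between 0.11 and 0.35, and 7 of its 11 copies had 0 reads in Maqu. None of the copies with reads in Maqu was called in either direction.

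Among histone methyltransferases 10 of 14 names were below 0, with a median of -0.10, where 2341 of all 4702 names were below 0. With all copies summed it was 8 of 14, with a median of -0.03. SETD8, which puts the first methyl group on a lysine in the tail of histone H4, had 258 Madoi reads and 742 Maqu reads. It was 2.66-fold lower in Madoi, a log2 ratio of -1.41 (counting interval -1.62 to -1.21), and both of its copies read in Maqu were below 0, at -1.55 and -0.71. Both come from 1 assembly component and so share a source. A further 2 copies had 193 Madoi reads together and 0 in Maqu, and with them the ratio of SETD8 was -0.61 and the call was lost. SUV420H, which adds further methyl groups to the same lysine, had 1255 reads against 2366, a log2 ratio of -0.80. That value lay in 1 copy of 4256 bases with 1139 against 2246 reads, while its other copy read in both libraries had 116 against 120. Gene ontology or KOG text (deposited descriptions of function) that speaks of chromatin, called chromatin text here, stood on the latter copy only, which by itself gave 0.06. No ontology term was used for the former. SUV39H, which methylates histone H3 in silent heterochromatin, was called lower at -1.43 (counting interval -2.75 to -0.34) from 9 against 27 reads on 1 copy of 295 bases. Another SUV39H copy had 91 Madoi reads against 0, and with it the ratio of the name turned to 1.98.

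The remaining histone methyltransferases differed less. SETDB, a methyltransferase of silenced repeats, was the highest of them at 0.30, with 2313 against 2030 reads. Its copies ranged from -0.75 to 0.77, and the 4 with chromatin text together gave 0.08. The H3 lysine-79 specific methyltransferase had 3 copies that lay close together, between 0.15 and 0.22. SETD2, which marks transcribed gene bodies, stood at -0.01 with 4407 against 4786 reads. SETD1, a methyltransferase of active promoters, had the most copies, 29, which carried 17 different protein accessions. Its summed ratio was 0.16, from 22062 against 21331 reads. Chromatin text stood on 12 of its 26 copies with reads in Maqu, all 12 were below 0, and their sum was 1087 against 1584 reads, a log2 ratio of -0.43. The direction for SETD1 therefore depends on which copies are taken to be this enzyme.

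Acetyltransferases, which open chromatin by neutralising lysines of histone tails, had a median of 0.01 over 7 names, and none was called. With all copies summed the median was 0.42. Histone acetyltransferase 1, with a copy of 1265 Madoi reads and 0 in Maqu, was then called higher at 1.55. Without copies at 0 in Maqu, MYST2 had the highest ratio among all writers, 0.78 (counting interval 0.69 to 0.86), from 2803 against 1767 reads on 1 copy. MYST3 was on the other side, at -0.40 with 2645 against 3754 reads, and all 6 of its copies with chromatin text were below 0. MYST1, with the highest level per length among the acetyltransferases, had 17.27 RPKM in Madoi and 25.47 in Maqu on its leading copy and a summed log2 ratio of -0.20. The coactivator named E1A/CREB-binding protein, an acetyltransferase that the words above do not find, had 14452 and 15768 reads, a log2 ratio of -0.02.

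Erasers remove marks, and 1 of 19 eraser names was called higher and 0 lower, with a median of -0.20. That is 5.26% and 0%, beside 5.89% and 7.15% of all names. The called name was sirtuin 3, which in mammals is a deacetylase of mitochondrial proteins and so acts mainly outside chromatin. Its single copy of 2224 bases had 1192 Madoi reads and 460 Maqu reads. That is 2.79-fold higher in Madoi, a log2 ratio of 1.48 (counting interval 1.33 to 1.64), and the authors' RPKM values were 8.23 and 3.06. The other 2 sirtuins that are mitochondrial in mammals did not share this difference: sirtuin 5 stood at 0.25 with 3012 against 2730 reads and sirtuin 4 at -0.10 with 533 against 617. Another sirtuin 4 copy had 202 Madoi reads and 0 in Maqu, and with it the ratio of sirtuin 4 was 0.36.

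The sirtuins of the nucleus and cytosol were all below 0. Sirtuin 1, a nuclear NAD-dependent deacetylase of histones and transcription factors, had 2153 against 2665 reads, a log2 ratio of -0.20. Sirtuin 2, which is mostly cytosolic, had 1745 against 2691 reads and stood at -0.51. Sirtuin 6, a chromatin enzyme of DNA repair, had 101 against 148 reads and stood at -0.44, with a counting interval from -0.82 to -0.07. Sirtuin 7, a nucleolar enzyme, had 375 against 623 reads and stood at -0.62. None of these 4 reached 2-fold.

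Of the zinc-dependent histone deacetylases, 5 of 7 names were below 0, where 2341 of all 4702 names were. Histone deacetylase 4/5, whose members shuttle between nucleus and cytoplasm in muscle and heart cells, had 5215 against 10316 reads, a log2 ratio of -0.87 (counting interval -0.92 to -0.83). The difference lay in 1 copy of 3954 bases with 4469 against 9515 reads, while the 3 other copies, all of 1 assembly component, had ratios between -0.04 and 0.04. Histone deacetylase 11 had 72 against 139 reads and stood at -0.83, and its 3 copies with reads in Maqu were all below 0. Another copy had 41 Madoi reads and 0 in Maqu. With it the ratio of histone deacetylase 11 was -0.19, with a counting interval from -0.56 to 0.18. Histone deacetylase 6/10, mainly a cytoplasmic deacetylase of tubulin and polyamines, stood at -0.56 with 2232 against 3563 reads.

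The other 2 deacetylase names were above 0 but were not called. Histone deacetylase 1/2, the catalytic core of several repressor complexes, had 4920 against 2873 reads, a log2 ratio of 0.89. A copy with 1333 reads in Madoi and 3 in Maqu was part of this sum, and without it the ratio was 0.43, with the remaining copies at 0.63 and -0.37. Histone deacetylase 9 had 74 against 47 reads, with a counting interval from 0.22 to 1.32. Histone deacetylase 3, the enzyme of nuclear receptor corepressors, had the highest level per length of the deacetylases, with 34.03 RPKM in Madoi and 42.18 in Maqu, and stood at -0.30. Histone deacetylase 8 had 1 copy, with 192 reads in Madoi and 0 in Maqu, so no ratio is given for it.

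Demethylases stayed within 2-fold in all 5 names, between -0.31 and 0.44. JARID1 removes methyl groups from histone H3 at promoters. By the authors' RPKM it had the highest level among erasers, with 94.69 in Madoi and 83.38 in Maqu on its leading copy. That copy had 5394 Madoi reads on a printed length of 5229 bases, while histone deacetylase 3 had 5478 on 2798. None of the 4 JARID1 copies has chromatin text. They ranged from -0.52 to 0.40, and their sum stood at 0.22. Lysine-specific histone demethylase 1, a flavin-dependent demethylase of histone H3, had 6002 against 5682 reads and stood at 0.19. Its 1 copy with chromatin text had only 187 against 248 of these reads and by itself gave -0.30. JMJD3, which erases the mark that polycomb enzymes write, stood at 0.44 with 1381 against 1100 reads.

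Readers and remodellers formed the largest role, with 37 names measured, of which 1 was called higher and 1 lower, and a median of 0.04. That is 2.70% each way, beside 5.89% and 7.15% of all names. Without copies beyond a log2 ratio of 5, 0 of the 37 were called higher and 1 lower. The sums of the SWI/SNF names lay in a narrow band, from -0.04 to 0.30. Of these, 6 of 7 were above 0, where 2361 of all 4702 names were. Both depend on the copies used. With chromatin text 4 of 7 were above 0, from -0.26 to 0.30, where 199 of 370 names were. With all copies summed 7 of 7 were, from 0.10 to 1.11, where 2828 of 4819 names were. Single copies spread more widely: subfamily A member 5 had copies at -0.17 and 1.01 and a sum at 0.09. With its 2 copies at 0 in Maqu, which held 1232 Madoi reads, that name stood at 1.11 and was called higher. The catalytic ATPases of the complex, subfamily A member 2/4, had 15382 against 17103 reads over 22 copies, a log2 ratio of -0.04. The 9 of these copies with chromatin text gave -0.26. The scaffold subunits of subfamily C stood at 0.28 with 11179 against 9910 reads, and subfamily D at 0.30 with 4425 against 3888. Subfamily E, member 1, a DNA-binding subunit, had the highest level per length among readers in copies read in both libraries, with 57.96 RPKM in Madoi and 59.8 in Maqu, and stood at 0.09. The annotation of that copy beyond its name speaks of RNA processing, not chromatin.

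Summed without copies at 0 in Maqu, the 4 chromodomain helicase names lay between -0.12 and 0.35. CHD4, the ATPase of the nucleosome remodelling and deacetylase complex, had 13271 against 11257 reads, a log2 ratio of 0.35. Of its 3 copies read in both libraries, the ratios were 0.66, 0.11 and -0.12, and the 2 with chromatin text together gave 0.08. CHD3 of the same complex stood at -0.12 and CHD8 at 0.02. CHD1, a remodeller of transcribed genes, had 9630 against 10389 reads and a ratio of 0.00, or -0.11 without a copy that had 742 Madoi reads against 1. Its copies spread widely, from -2.18 for a copy with 95 against 466 reads to 0.53 among those read in both libraries with at least 50 reads. With copies at 0 in Maqu added, CHD4 stood at 0.51 and CHD1 at 0.41.

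Bromodomain proteins bind acetylated lysines, and their ratios were split evenly around 0, with 6 of 12 above. BRD2 and BRD3, which bind acetylated histones at active genes, stood at -0.32 and -0.41. The lowest was bromodomain and PHD finger-containing protein 3, a scaffold of acetyltransferase complexes, with 286 against 533 reads and a ratio of -0.79. All 3 of its copies with reads in Maqu were below 0. Another copy had 120 Madoi reads and 0 in Maqu, and with it the ratio of the name was -0.28.

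The polycomb RING finger proteins, alternative subunits that define versions of polycomb repressive complex 1, differed in direction among themselves. PCGF1 had 128 reads in Madoi against 367 in Maqu, 2.65-fold fewer and a log2 ratio of -1.41 (counting interval -1.71 to -1.12). Its only copy has no chromatin text, so this call is lost where such text is required. PCGF2 had 417 reads against 242, a log2 ratio of 0.89 (counting interval 0.66 to 1.13). PCGF4, also known as BMI1 and the most abundant polycomb name per length with 51.09 RPKM in Madoi and 38.92 in Maqu, stood at 0.50. PCGF6 stood at 0.38 with 771 against 639 reads, and PCGF3 had 1 copy with 105 reads in Madoi and 0 in Maqu. The core proteins of the other polycomb complex, which methylates histone H3, lay closer to 0, with EED at -0.26, SUZ12 at 0.06 and the catalytic enhancer of zeste, which the words above do not find, at -0.21.

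Methyl-CpG-binding proteins, which read methylated DNA, were below 0 in 3 of 4 names, beside 2341 of all 4702 names. MBD3, a subunit of the nucleosome remodelling and deacetylase complex, was just short of the call, with 162 against 342 reads and a log2 ratio of -0.97. MBD1 stood at -0.11 and MBD4, a glycosylase of DNA repair, at -0.54 from 33 against 52 reads. MBD2 stood at 0.02 with 940 against 998 reads.

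Histones, the proteins that the enzymes above act on, included the 3 highest ratios of all 86 names, but 3 of the 4 histone names called rested on copies nearly absent from Maqu. Of 6 histone names these 4 were called higher in Madoi, beside 5.89% of all names, with a median log2 ratio of 1.67. Without copies beyond a log2 ratio of 5 there was 1 higher and 1 lower, with a median of -0.23. Of all names, 4.17% were then called higher and 7.05% lower. Histone H2B, part of the nucleosome core, had 4212 against 246 reads, a log2 ratio of 4.20. Its copy of 525 bases had 4108 Madoi reads against 1, while its other copy had 104 and 245 and was called lower at -1.12. Histone H4, also of the core, had a copy with 2484 reads in Madoi and 1 in Maqu. Without it H4 went from 4.17 to -0.92, and its copies read in both libraries had 32 against 105, 28 against 35 and 14 against 12 reads.

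Linker histone H1/5, which binds where DNA enters and leaves the nucleosome, had 4 copies that pointed in different directions. One of 847 bases had 9337 Madoi reads against 2, which is a log2 ratio of 11.97 (counting interval 10.45 to 15.34). The next had 3909 against 3649, a ratio of 0.21. A copy of 607 bases had 1099 against 3046, a ratio of -1.36 (counting interval -1.46 to -1.26), and the smallest had 134 against 69, a ratio of 1.06. The name stood at 1.21 with the first copy and at -0.29 without it.

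Histone H3 held the most abundant copy per length of all those read in both libraries, with 138.68 RPKM in Madoi and 105.72 in Maqu. That copy had 20823 against 16351 reads, a log2 ratio of 0.46, and the next had 5915 against 5432, a ratio of 0.23. The 3 weakest copies read in both were below 0, the lowest at -2.02 with 9 against 41 reads. H3 also had a copy with 4363 reads in Madoi and 2 in Maqu. Its sum stood at 0.61 with that copy and at 0.39 without it.

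Histone H2A, with 12 copies, was not called in either direction. Its leading copy read in both libraries had 2429 against 2453 reads, a ratio of 0.10. Of its 7 copies read in both, 5 were below 0, the lowest at -1.28 with 195 against 511 reads, and the sum stood at -0.18. The other 5 copies had 0 reads in Maqu and 47 to 2755 in Madoi. With them the ratio of H2A was 0.63.

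**Figure D3:**
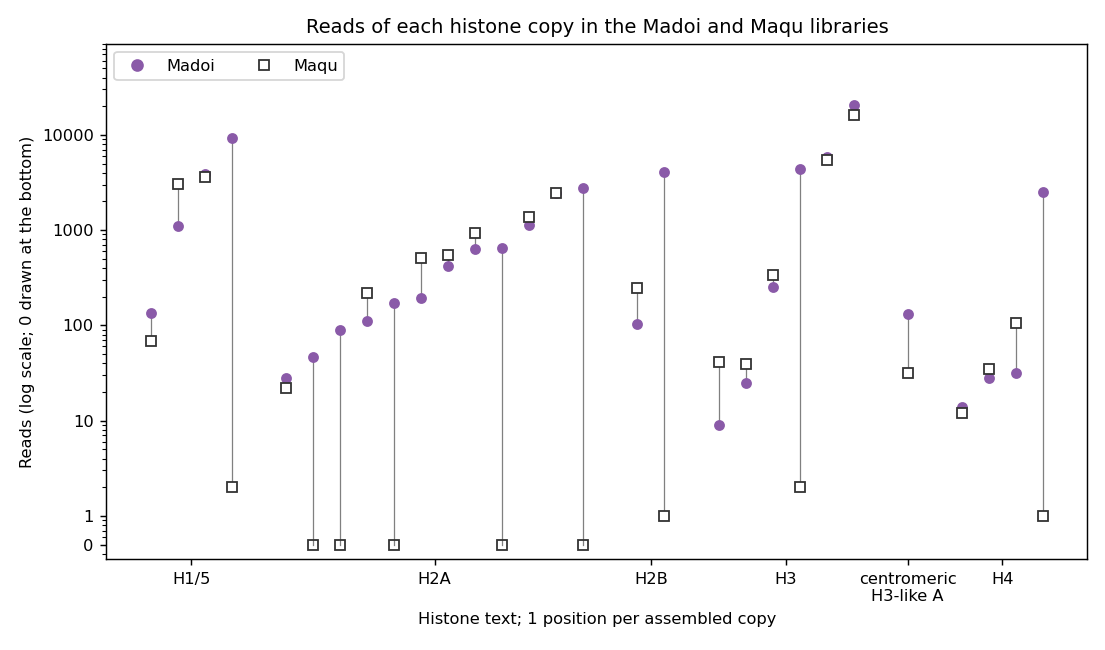
Reads of each histone copy in the Madoi library (filled circles) and the Maqu library (open squares), on a log scale with 0 drawn at the bottom; each position is 1 copy and lines join its values. A single copy of H1/5, H2B, H3 and H4 has 2484 to 9337 reads in Madoi and 1 or 2 in Maqu, and 5 copies of H2A have 0 in Maqu.

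The histone H3-like centromeric protein A, which replaces H3 at centromeres and is loaded once per cell division in mammals, was the other name called higher that does not rest on such a copy. Its reads were 132 for Madoi against 32 for Maqu, on 1 copy of 614 bases, a 4.40-fold difference and a log2 ratio of 2.14 (counting interval 1.59 to 2.76). Markers of dividing cells, such as cyclins and minichromosome maintenance proteins, were detected for 12 of 12 names. Their summed level was 468 CPM (reads scaled to a common library size) in Madoi and 363 in Maqu, with a median log2 ratio of 0.12 and 1 of 12 called higher. That one was proliferating cell nuclear antigen, at 1.57 and at 0.05 without copies beyond a log2 ratio of 5. Most of the summed level came from DNA topoisomerase II, with 16607 against 14403 reads. The 12 ratios lay on both sides of 0, from -0.41 to 1.57. The part of dividing cells in the centromeric histone ratio was not tested.

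Markers of the sampled tissues did not all have equal levels in the 2 libraries. The summed level of 6 liver markers was 1203 CPM in Madoi against 2268 in Maqu, which is a log2 ratio of -0.91. For 5 lung markers it was 369 and 758, a ratio of -1.04, with 3 of 5 detected. Within the liver list, 4-hydroxyphenylpyruvate dioxygenase stood at -2.39 and apolipoprotein A-I at 1.23. The summed ratio was 0.04 over 4 heart markers, whose median was 0.52 with 2 called higher, the transcription factors Nkx-2.5 at 1.13 and T-box protein 5 at 1.23. It was 0.08 for 4 skeletal muscle markers, none of them called. It was 0.34 for 6 leukocyte markers, with 2 called higher and the lowest at -0.61. Most of the leukocyte sum came from 1 name, the CD3 zeta chain, with 17403 against 14359 reads, while the CD3 epsilon chain had 8 against 8. In such mixed RNA, fewer cells of a type and less RNA per cell cannot be told apart. The part of these marker differences in the ratios of histone deacetylase 4/5, SETD8, PCGF1 or sirtuin 3 was not tested.

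The remaining 2 names matched by the word histone carry histones and are neither modifiers nor histones. RBBP4, a histone-binding subunit shared by several chromatin complexes, had 10076 against 8605 reads, and ASF1, a chaperone that hands H3 and H4 to assembly factors, had 3591 against 3053. Both stood at 0.34.

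Copy by copy, these genes were called less often than all annotated copies in both directions. Lower calls outnumbered higher ones in both sets. Among 313 copies with reads in Maqu, 12 were called higher and 16 lower. Of all 11552 annotated copies with reads in Maqu, 897 or 7.76% were called higher and 1104 or 9.56% lower. Among the 306 copies read in both libraries, 5 were called higher and 16 lower, beside 5.39% and 9.56%. Of these 306, 92.8% lay within 2-fold, beside 84.2% of 11230 annotated copies, which is a description of this table and not a test. The 5 higher copies were sirtuin 3, the centromeric histone, the smallest H1/5 copy, a histone deacetylase 9 copy with 40 against 19 reads, and a copy of SWI/SNF subfamily A member 5 with 342 against 183. By role, 7 of 110 writer copies, 1 of 38 eraser copies, 3 of 134 reader copies and 5 of 20 histone copies were lower.

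**Figure D4:**
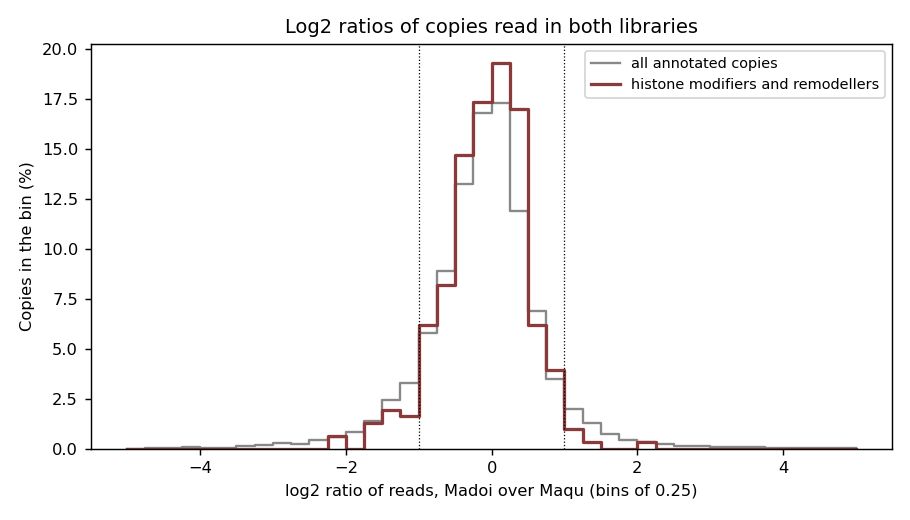
Share of copies (vertical, %) by log2 ratio of reads, Madoi over Maqu (horizontal, bins of 0.25), for the 306 histone modifier and remodeller copies and the 11230 annotated copies read in both libraries; dotted lines mark a 2-fold difference. Both curves are centred near 0, with medians of -0.06 and -0.07, and 92.8% and 84.2% of copies lie between the dotted lines.

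The 94 copies with 0 reads in Maqu were short and held few of the reads. Their median length was 508 bases, against 1174.5 bases for copies read in both libraries, and they had between 18 and 2755 reads in Madoi. They held 26907 Madoi reads, or 7.36% of the Madoi reads of all 407 copies, where copies of this kind held 2.75% of the Madoi reads of all annotated copies. With the 7 copies of 1 to 3 Maqu reads, which are those beyond a log2 ratio of 5, the share was 14.9%. Among histones it was 39.1%, among erasers 3.42%. Over all annotated copies, those at 0 in Maqu or beyond a log2 ratio of 5 in either direction held 6.85%. That class is wider, as its 322 copies not at 0 in Maqu held 51930 Maqu reads, against 11 on the 7 copies here.

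The copies with most reads among the 94 spanned all roles but the erasers. An H2A copy had 2755 reads in Madoi, at least 991-fold higher than the limit of 3 counts that 0 reads in Maqu allow. A copy of polycomb-like protein 2, a partner of the histone H3 methylating polycomb complex, had 1492 reads, at least 537-fold higher. Copies of SETD1 with 1453 reads, RBBP4 with 1362 and SWI/SNF subfamily A member 2/4 with 1348 followed, at least 523-fold, 490.0-fold and 485-fold higher. By family, the share of copies with 0 reads in Maqu was highest for DNA methyltransferase, with 7 of 11, followed by polycomb proteins with 10 of 25 and chromodomain helicases with 19 of 54.

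The protein accessions in the table show how these copies relate to the others. A protein accession stood on 77 of the 94 copies, and 17 of the 77 shared theirs with a copy read in both libraries. The remaining 60 carried an accession that no copy read in both libraries had. Of the 10 CHD4 copies with 0 reads in Maqu, 9 carried 1 and the same accession. Chromatin was spoken of in the ontology or KOG text of 48 of the 94 copies, and of 197 of the 313 copies with reads in Maqu, or 51.1% and 62.9%. The same words stood on 6.64% of all annotated copies with reads in Maqu. Copies without such text held 35.5% of the Madoi reads of the 313, and some of those copies had no ontology term to search. Restricted to copies with such text, 74 names were measured, 6 were called higher and 2 lower, beside 4.59% and 3.78% of all names with such copies; this restriction was chosen after the values were seen.

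**Figure D5:**
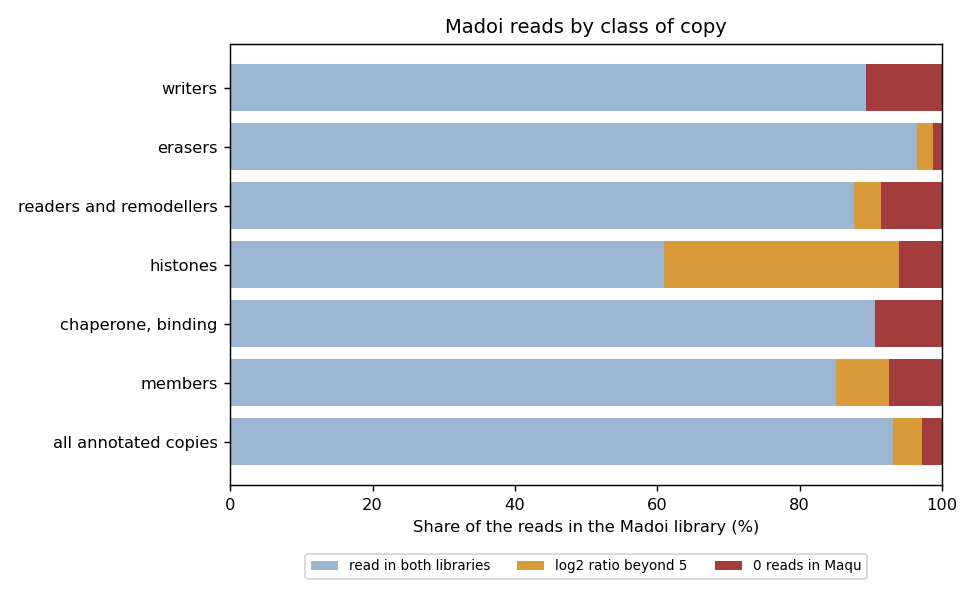
Share of the Madoi reads (horizontal, %) in copies read in both libraries, copies with a log2 ratio beyond 5 and copies with 0 reads in Maqu, for each role, for all 407 copies (members) and for all annotated copies. Histones have 39.1% of their Madoi reads in the latter 2 classes, against 14.9% for all 407 copies and 6.85% for all annotated copies.

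In the authors' deposited table, 62 of the 407 copies were marked significant. Of these, 59 in the authors' deposited table were higher in Madoi, 14.5% of copies beside 14% of all annotated copies, and 3 were lower, 0.737% beside 1.53%. All 59 had 0 to 3 reads in Maqu, 52 of them 0. The 3 lower copies in the authors' deposited table were the H1/5 copy of 607 bases with an FDR of 1.59e-05, the leading copy of histone deacetylase 4/5 with an FDR of 0.049, and the H2A copy with 195 against 511 reads, whose listed FDR was 0.281. Sirtuin 3, SETD8, PCGF1 and the centromeric histone were not marked in the authors' deposited table. The sources used here do not say how those p-values were computed from 1 library per population.

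Related chromatin genes that the words above do not find were counted in the same way. They comprised chromobox proteins, INO80 and cohesin subunits, arginine methyltransferases, high mobility group proteins and others, 50 names with reads in Maqu. Of these, 3 were called higher, 1 lower and 46 neither, with a median of 0.06. That is 6% higher and 2% lower, beside 5.89% and 7.15% of all names. With all copies summed, 10 of 52 related names, or 19.2%, were called higher and 0 lower, beside 11.6% and 6.33% of all names. The median was then 0.30, beside 0.12 over all names. The FACT subunit structure-specific recognition protein 1, which helps polymerases pass nucleosomes, had 17678 against 6351 reads and a ratio of 1.59, and EAF6 and high mobility group protein B1 stood at 1.19 and 1.18. Without copies beyond a log2 ratio of 5 these 3 stood at -0.05, 0.60 and -0.35, and 0 of the 50 were called higher. The name called lower was high mobility group protein 2-like 1, with 156 against 358 reads and a ratio of -1.09. Chromobox proteins 3 and 4, readers of repressive methyl marks, stood at 0.85 and 0.89, and RuvB-like protein 2, an ATPase of remodelling complexes, at -0.83.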

How the data were processed

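Standard Illumina libraries were made from total RNA that was isolated with a Promega kit, per the labels. The series' design text names Trinity, BLAST and KaKs_Calculator for the study. An aligner, a counter, their versions and the authors' test were not given in the sources used here. A single deposited table gives expected counts per assembled gene, estimated by the authors, with RPKM values, a log2 fold change, p-values and FDR, and lengths treated here as a score. The authors' RPKM divides by an effective length that can differ between libraries and from the printed length, so RPKM and read ratios can differ. Expected counts were rounded to whole numbers; columns of other samples numbered 0.

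TMM factors from edgeR 4.0.16 in R 4.3.3 were 0.983 (Madoi) and 1.02 (Maqu). Log2 ratios had 0.5 reads added, in proportion to library size, and exact 95% Clopper-Pearson intervals of the share of reads in Madoi. Since reads need not come from separate molecules, these intervals and the limits below reflect counting error alone. A count of 0 was bounded by 3 counts per library, 0.0479 CPM in Madoi and 0.0444 in Maqu. No test across genes was made, because each population has 1 library. The call was tested on simulated data for Madoi against Maqu with 58458 genes: 100% of 100 genes changed 3-fold and 100% of 100 changed 8-fold were recovered, and 0.917% of 58258 unchanged genes were called. The simulation held counting error only. The changed genes were drawn only from those with more reads than the call needs, and no change close to 2-fold was simulated. Recovery was not split by read number. These values therefore do not describe names with few reads, such as SUV39H, or differences near the threshold.

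Annotation texts were taken as names and grouped by hand into writers, erasers, readers with remodellers, histones, and chaperone or binding proteins. Close paralogs under one text cannot be told apart. The protein accessions were not turned into names, and sequences were not used here. The genes named are those called, the 2 highest and 2 lowest ratios per role with at least 50 reads, the 2 highest RPKM per role, the 5 copies at 0 in Maqu with most Madoi reads, and a short list of well-known enzymes; others were chosen after their values were seen, and 1 gene that the rule selects is counted but not reported here. The members and lists were chosen with earlier results of these data known. Alternatives were another scaling (library total, or DESeq2 1.42.0 size factors of 0.960 and 1.04), no filter or 50 reads, a 4-fold threshold, and no interval. Further ones were a pseudocount of 5 reads, all copies, and copies at 0 or beyond a log2 ratio of 5 left out. The last was the copy with the highest mean, which can be a copy beyond 5. The restriction to copies with chromatin text, the count at no more than 3 Maqu reads, and the leaving out of copies beyond 5 for counts of copies were added after the data were seen. Python 3.11.15 with numpy, pandas and scipy was used.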

Additional observations from a re-analysis of the deposited data

How the results depend on the processing

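The number of names called higher in Madoi was 6, and it was 12 when all copies were summed, 2 without copies at 0 or beyond a log2 ratio of 5, and 3 at a 4-fold threshold. The number called lower was 3, and it was 1 with all copies, where SETD8 fell short at -0.61, and 0 at 4-fold. The median over names was 0.01 and became 0.19 with all copies, where that over all annotated names went from 0.00 to 0.12. Copies called higher went from 12 to 5 without those beyond 5, and copies called lower from 16 to 2 at 4-fold. Among named genes, ratios that changed sign while called were H1/5 (-0.29), H2B (-1.12) and H4 (-0.92) without copies beyond 5, and SUV39H (1.98) with all copies; for each, 1 copy made the difference. Another scaling, no filter, a filter of 50 reads, no interval and a pseudocount of 5 reads left the 6 higher names as they were, and 2 to 4 names were lower. Taking only the copy of each name with the highest mean kept the 6 higher and 3 lower names. For H1/5, H2B and H4 that copy was the one nearly absent from Maqu, at 11.97, 11.51 and 10.79. This setting therefore could not lose those calls and is no check on them. With the highest-mean copy, 18 of 32 named ratios fell outside the counting interval of the main setting. With all copies summed, 11 named ratios did so besides SUV39H. Only copies with chromatin text gave 6 higher and 2 lower names, without PCGF1, the 6 being shared with the main setting. The copies of H1/5, H2B and H4 nearly absent from Maqu have chromatin text and stay in this setting too. The count of copies at 0 in Maqu was 94, and 101 at no more than 3 reads. No paired analysis was possible because each population has 1 library, and for the same reason no library could be left out. Depth limits names with few reads: the 9 and 27 reads of SUV39H gave an interval from -2.75 to -0.34.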
